A study of Mus musculus with 48 samples.

Results

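Neutrophil transcripts were followed in the livers of FCG mice, as 8 genes of the 55414 in the count table: S100a8, S100a9, Retnlg, Ngp, Cxcr2, Csf3r, Mmp8 and Mmp9. They were matched by symbol and were picked around S100a8, the transcript that fell most after ovariectomy, so their change after ovariectomy is given below as a description with no test. All 8 members passed the filter on low counts that left 15414 genes to test.

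FCG mice separate the gonad from the sex chromosomes, because the testis-determining gene Sry is missing from their Y chromosome (written Y-) and is supplied, in the mice with testes, by a transgene on an autosome. The labels give 4 genotypes: XX (ovaries, here XX Ov), XX;SryTg (testes, XX Te), XY- (ovaries, XY Ov) and XY-;SryTg (testes, XY Te). Each was sampled with its gonads in place (Intact) or after gonadectomy (GDX) at 75 days of age, which made 8 groups of 6 mice and 48 liver RNA-seq libraries. All mice were fed a high-fat diet (HFD, 60% of calories from fat) from 15 to 17 weeks of age, for 11 weeks in Intact mice and 15 weeks in GDX mice according to the labels. The study's methods give other lengths, also longer for the GDX cohort. Every mouse therefore carried the HFD, no chow-fed mouse was included, and the removal of gonads cannot be told apart from the longer diet or from the handling of the GDX cohort. XY mice of both gonad types lack Sry on the Y chromosome, so neither is a wild-type male.

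Neutrophils are short-lived phagocytes that leave the bone marrow, circulate and enter tissues along chemokine gradients. S100A8 and S100A9 form calprotectin, the most abundant protein pair of their cytosol. NGP, MMP8 and MMP9 are stored in granules, whose transcripts are made mostly while the cells mature in the marrow, and resistin-like gamma, the product of Retnlg, is secreted by mature cells. CXCR2 receives the CXC chemokines that draw neutrophils out of the blood, and the receptor encoded by Csf3r receives granulocyte colony-stimulating factor, which drives their production. In the liver, neutrophils lie in the sinusoids beside Kupffer cells and increase in steatohepatitis. A bulk liver library cannot tell a smaller number of neutrophils from less of the transcript in each neutrophil, nor cells in the tissue from cells in the blood it retains.

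The library totals ranged from 13071874 to 20045141 counts on genes, so that 3 counts, used here as the smallest level taken as present, corresponded to 0.150 to 0.230 CPM (a gene's counts scaled to the same total in every library). Xist was at least 123 CPM in XX mice and at most 8.36 CPM in XY mice, and each of 4 Y-linked genes was higher in every XY than in every XX mouse. One XX Te Intact library, mouse 4, nevertheless held Y-linked reads (Ddx3y 3.82 CPM, against 46.0 CPM in the lowest XY mouse). Reads outside annotated genes made up 3.47 to 6.20% of each Intact library and 8.52 to 11.3% of each GDX library, without overlap. Hepatocyte markers summed to at least 66553 CPM in every library. One mouse, XX Te Intact mouse 5, was left out by the study in its single-gene plots and is kept here.

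The 2 genes that headed the list, S100a8 and S100a9, are neighbours on chromosome 3. Promoters of 4 members are shown because S100a8 and S100a9 varied together between mice, Ngp had the largest difference between XY and XX mice, and Csf3r departed from the others after castration. The RefSeq promoter table used here (GRCm38.p6) was matched for 7 of the 8 members, not for Mmp9. Each window runs from 250 bases before the annotated start to 50 after it, 5′ to 3′ on the strand of the gene. Capitals mark matches on either strand to 3 motifs. The first is TATAAA, a core promoter box. The second is TTGCNNAA, a site of the C/EBP family of factors. The third is GAGGAA, the core of sites of the myeloid factor PU.1. In S100a8 a match to the third motif directly precedes the first. The windows are S100a8 at chr3:90668821-90669120 (plus strand), S100a9 at chr3:90695672-90695971 (minus strand), Ngp at chr9:110419558-110419857 (plus strand) and Csf3r at chr4:126024409-126024708 (plus strand).
S100a8: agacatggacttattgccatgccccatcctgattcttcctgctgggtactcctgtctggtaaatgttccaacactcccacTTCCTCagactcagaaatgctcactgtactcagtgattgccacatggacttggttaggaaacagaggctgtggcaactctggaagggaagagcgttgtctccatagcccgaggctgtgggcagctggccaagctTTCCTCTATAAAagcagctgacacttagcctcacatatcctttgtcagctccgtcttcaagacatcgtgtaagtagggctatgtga
S100a9: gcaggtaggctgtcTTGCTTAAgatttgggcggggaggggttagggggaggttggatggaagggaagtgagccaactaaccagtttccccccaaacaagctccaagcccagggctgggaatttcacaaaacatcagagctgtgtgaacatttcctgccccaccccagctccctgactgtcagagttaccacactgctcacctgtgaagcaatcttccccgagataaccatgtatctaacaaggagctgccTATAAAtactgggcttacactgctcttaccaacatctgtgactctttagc
Ngp: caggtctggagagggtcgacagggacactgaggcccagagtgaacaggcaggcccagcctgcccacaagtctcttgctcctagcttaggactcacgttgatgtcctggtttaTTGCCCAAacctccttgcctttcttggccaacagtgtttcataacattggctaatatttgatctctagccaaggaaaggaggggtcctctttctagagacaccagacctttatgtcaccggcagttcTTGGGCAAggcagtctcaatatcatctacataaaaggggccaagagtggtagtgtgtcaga
Csf3r: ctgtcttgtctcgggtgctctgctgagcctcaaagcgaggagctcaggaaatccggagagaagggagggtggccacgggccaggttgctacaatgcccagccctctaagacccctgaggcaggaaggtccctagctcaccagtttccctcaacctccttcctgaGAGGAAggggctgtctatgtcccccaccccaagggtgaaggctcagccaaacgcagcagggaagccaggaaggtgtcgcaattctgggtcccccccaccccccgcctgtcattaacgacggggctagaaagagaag

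A TATAAA match stood in 3 of the 7 windows (S100a8, S100a9 and Mmp8), against 13.6% of 32851 mouse promoter windows of the same length. In S100a8 it began 30 bases before the annotated start and in S100a9 at the start itself. In Mmp8 it lay on the opposite strand, from 3 bases before the start. TTGCNNAA was found in 4 windows (S100a9, Retnlg, Ngp and Mmp8), against 10.8% of all windows. GAGGAA was found in 4 windows (S100a8, Cxcr2, Csf3r and Mmp8), against 28.3%. Csf3r held the third motif and neither of the others. These matches describe the letters of a window and are no evidence of binding.

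S100a8 was highest in XY Ov Intact livers and nearly absent from XX GDX livers. In XX Ov Intact mice it ranged from 0.876 to 8.59 CPM (median 4.59, n = 6), and in XY Ov Intact mice from 20.3 to 412 CPM (median 70.3, n = 6). In XX Te Intact mice it ranged from 0.919 to 16.5 CPM (median 1.82), and in XY Te Intact mice from 1.59 to 57.9 CPM (median 13.4). The Ov Intact groups did not overlap, whereas 3 of the 6 XY Te Intact mice lay within the range of the XX Te Intact mice. After GDX it ranged from 0.0606 to 0.704 CPM in XX Ov mice, from 0.0763 to 0.783 CPM in XX Te mice, from 1.61 to 17.8 CPM in XY Ov mice and from 0.697 to 34.6 CPM in XY Te mice. Every XX GDX mouse was thus below every XX Intact mouse, at most 0.783 against at least 0.876 CPM. The Ov mice among them are those of the contrast that chose the members, so this is a description. On the log2(CPM + 0.5) scale the order of group means ran from XY Ov Intact (6.31 ± 1.57 SD) through XY Te Intact, XY Ov GDX, XY Te GDX, XX Ov Intact, XX Te Intact and XX Ov GDX to XX Te GDX (-0.26 ± 0.49 SD). Neighbours in that order differed by more than their pooled SD at 2 of the 7 steps, between XY Ov Intact and XY Te Intact and between XX Te Intact and XX Ov GDX.

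**Figure D1:**
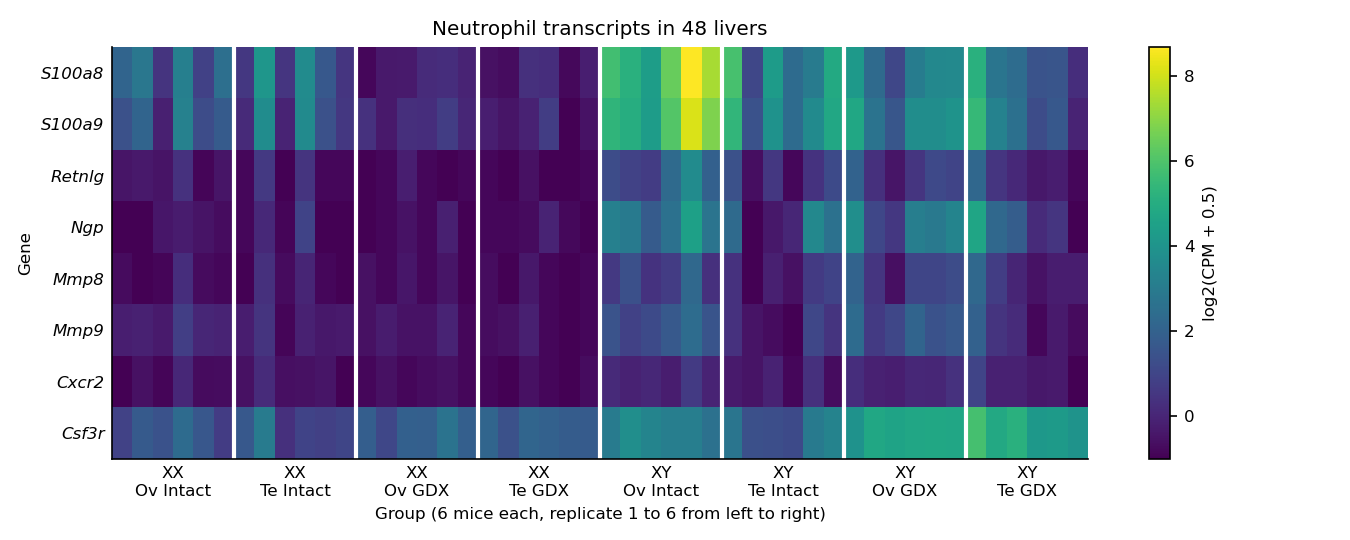
Level of the 8 transcripts, as log2(CPM + 0.5) in colour, in each of the 48 livers. Columns are mice, grouped by 6, and rows are genes. For every gene the brightest columns are XY mice on the right, and S100a8 and S100a9 reach their maximum in XY Ov Intact mouse 5 (412 and 281 CPM).

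S100a9, the partner of S100a8, followed it closely. Its medians were 2.56 CPM in XX Ov Intact mice, 53.5 CPM in XY Ov Intact mice, 1.57 CPM in XX Te Intact mice and 13.2 CPM in XY Te Intact mice. After GDX the medians were 0.725 CPM in XX Ov mice, 0.304 CPM in XX Te mice, 13.0 CPM in XY Ov mice and 4.07 CPM in XY Te mice. The order of the 8 groups was that of S100a8. The log2 ratio of S100a8 to S100a9 was 0.30 ± 0.45 (SD) over the 24 Intact mice and -0.33 ± 0.88 over the 24 GDX mice, so the ranges of the 2 cohorts overlapped.

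Ngp, a granule protein transcript, was the most nearly restricted to XY mice. Its medians were 6.66 CPM in XY Ov Intact, 2.59 CPM in XY Te Intact, 7.71 CPM in XY Ov GDX and 2.04 CPM in XY Te GDX mice. The 4 XX groups had medians of 0.0560 to 0.164 CPM, and 17 of the 24 XX mice were at 3 counts or fewer. Ngp had no count in 2 XY mice, 1 Te Intact and 1 Te GDX. The log2 ratio of Ngp to S100a8 was -4.01 ± 1.87 (SD) in Intact and -1.37 ± 1.29 in GDX mice, with overlapping ranges.

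The other secreted and granule transcripts were sparse. Retnlg reached a group median of 2.66 CPM in XY Ov Intact mice, with a range of 1.15 to 12.2 CPM, and 16 of the 24 XX mice had 3 counts or fewer. Mmp8, neutrophil collagenase, had a median of 1.09 CPM in XY Ov Intact and 1.53 CPM in XY Ov GDX mice, and 18 XX mice had 3 counts or fewer. Mmp9, gelatinase B, which macrophages also express, had its highest medians in the same 2 groups, 2.33 and 2.48 CPM, and at most 0.512 CPM in the other 6. For these genes the level in single mice rested on few counts.

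The receptors differed from each other. Cxcr2 was at 3 counts or fewer in 21 of the 24 XX mice, with a highest value of 1.49 CPM in any mouse. Csf3r was detected in all 48 mice, from 0.772 to 55.7 CPM, and its order of groups was unlike that of the other 7. It was highest in XY Te GDX mice (15.0 to 55.7 CPM, median 23.6) and XY Ov GDX mice (14.7 to 26.8 CPM, median 26.3). XY Ov Intact mice (5.63 to 13.3 CPM, median 8.43) lay below both of these groups without overlap. XY Te Intact mice had a median of 4.15 CPM, and the 4 XX groups had medians of 1.47 to 3.33 CPM.

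Levels of different genes were compared after division by exon length in the GENCODE vM1 annotation. Median values over the 48 mice were 10.8 CPM per kb for S100a8 and 5.38 CPM per kb for S100a9. They were 1.05 CPM per kb for Csf3r and between 0.0645 (Cxcr2) and 0.462 (Retnlg) CPM per kb for the rest. In XY Te GDX mice the mean of Csf3r, 6.85 CPM per kb, was closer to that of S100a8, 21.7, than in XY Ov Intact mice, where the means were 2.14 and 332 CPM per kb.

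**Figure D2:**
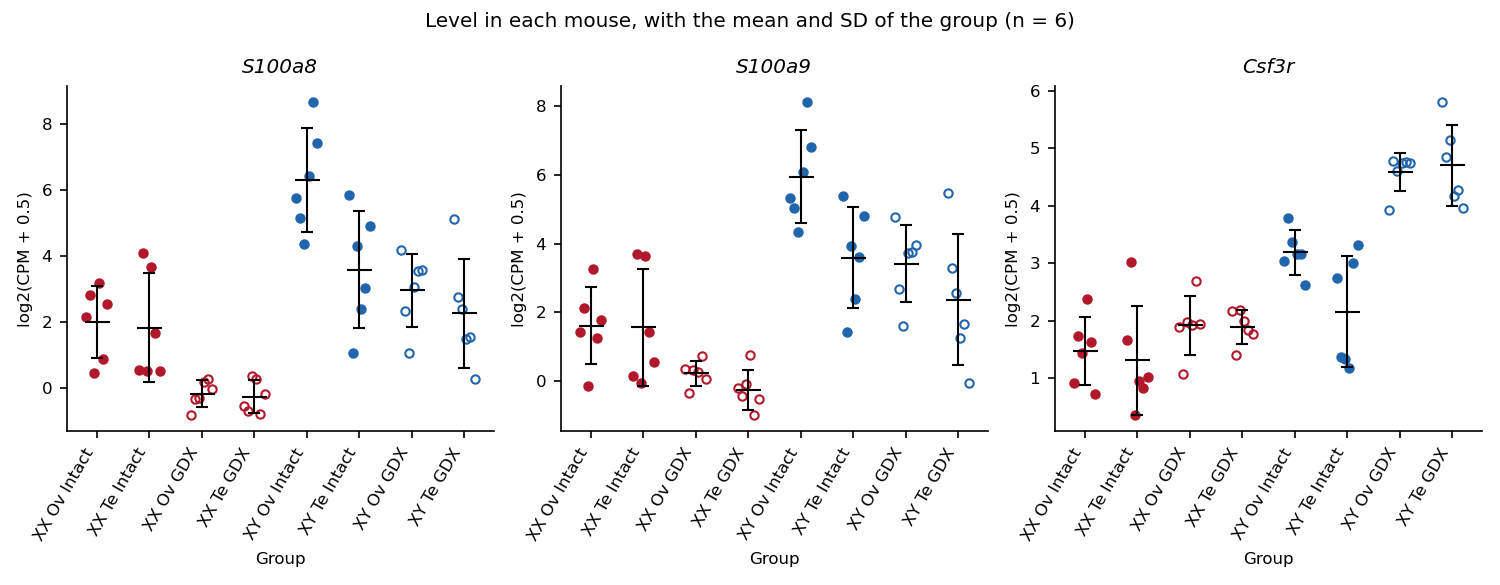
S100a8, S100a9 and Csf3r in each mouse on the log2(CPM + 0.5) scale, XX mice in red, XY mice in blue, Intact filled and GDX open, with bars for the mean and SD of each group of 6. The means of S100a8 and S100a9 are lower in each GDX group than in the Intact group of the same genotype. Open and filled points of the same colour overlap except for S100a8 in XX mice and Csf3r in XY mice. Csf3r is highest in the XY GDX mice.

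The chromosomal comparison asked whether the level depended on XX or XY at a given gonad and operation. It is orthogonal to the ovariectomy contrast by which the members were found, although it includes the same Ov mice. All 8 members rose in XY relative to XX mice over the 24 mice of each kind (edgeR quasi-likelihood test, adjusted p under the threshold of 0.05 for each), while 36.7% of all tested genes passed the same test and 14.8% did so with higher levels in XY mice. Retnlg, Ngp, Cxcr2 and Mmp8 had 3 counts or fewer in at least 16 of the 24 XX mice. Genes this sparse in XX mice reach the filter on low counts through the XY mice, which favours a higher level there. The count of 8 and the differences of these genes are therefore descriptions. S100a8, S100a9 and Csf3r were counted in XX mice too, with sums of 1148, 969 and 1189 counts. Ngp had the largest fitted difference, on few counts in XX mice. It differed by 4.95 ± 0.55 (SE) on the log2 scale. S100a8 differed by 3.82 ± 0.47 (edgeR adjusted p = 5.89e-09) and S100a9 by 3.79 ± 0.45 (edgeR adjusted p = 2.68e-09). Retnlg, Mmp8, Mmp9 and Csf3r differed by 3.23, 2.84, 2.12 and 2.07, and Cxcr2 least, by 1.69 ± 0.32. Csf3r had the smallest SE, 0.18.

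With gonads in place, 7 of the 8 members were higher in XY mice, against 6.42% of all tested genes called in that direction. The limit set by the filter holds here and in GDX mice too. Cxcr2 was the exception, at 1.13 ± 0.42 on the log2 scale (edgeR adjusted p = 0.0724), and it passed with 1 surrogate variable (1.28) or when any of 5 mice was left out (1.13 to 1.53): XX Ov Intact mouse 4, XX Te Intact mouse 2, XY Te Intact mouse 4 or XY Te GDX mouse 1 or 6. Mmp9, at 1.43 ± 0.43, lost its call when only genes without a count were filtered out (1.44) and without XY Ov Intact mouse 5 (1.27) or XY Te Intact mouse 5 (1.16). Without gonads, all 8 were higher in XY mice, against 14.8% of tested genes called in that direction, and the differences ranged from 2.25 (Cxcr2) to 5.36 (Ngp). The difference between these 2 strata was larger in GDX mice for all 8 members, but passed the test only for Csf3r, at 1.39 ± 0.36 on the log2 scale (edgeR adjusted p = 0.0309), where 2.12% of all tested genes passed. That call was lost when any of 4 mice was left out (XX Ov Intact mouse 4, XX Te Intact mouse 2, XX Ov GDX mouse 2 or XY Te GDX mouse 1), at 1.05 to 1.32, and with 1 surrogate variable in the fit, at 1.08.

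Within each kind of gonad, the separation of XY from XX mice was uneven. In Ov Intact mice, every XY mouse lay above every XX mouse for 7 of the 8 members (all but Cxcr2), where 3.74% of tested genes were separated in this way. In Ov GDX mice this held for 6 members (not Retnlg or Mmp8), against 13.5% of tested genes. The Ov mice are those of the contrast that chose the members, and sparse genes pass the filter through XY mice. Both counts are therefore descriptions. Among Te mice, outside that contrast, the separation held for none when Intact, against 0.13% of tested genes. After GDX it held for Csf3r alone, against 11.1%. The ratio of XY to XX means for S100a8 was 29.3 in Ov Intact, 3.52 in Te Intact, 22.0 in Ov GDX and 22.8 in Te GDX mice. For Csf3r it was 3.59, 1.90, 6.95 and 8.69 in the same order. The ratio was thus smallest in Te Intact mice for both genes, but whether gonad type altered the chromosomal difference was not tested.

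**Figure D3:**
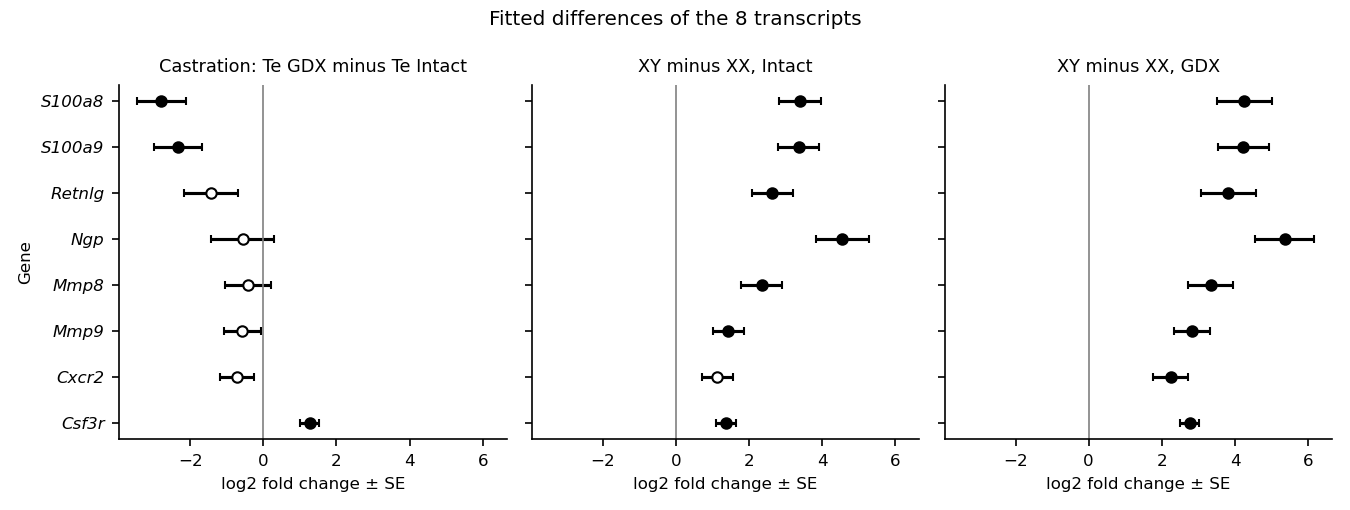
Fitted log2 fold change with its SE for each transcript, for castration (Te GDX minus Te Intact, 12 mice each) and for XY minus XX in Intact and in GDX mice (12 mice each). Filled points have an edgeR adjusted p under 0.05. The XY minus XX values are all above 0, and Csf3r is the only point above 0 for castration.

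Castration, the removal of testes, involved no mouse of the ovariectomy contrast. S100a8 and S100a9 fell and Csf3r rose, and the other 5 did not pass the test. These 2 decreases and 1 increase compare with 63.3% of all tested genes called, 29.9% lower and 33.4% higher, so a change after castration was common among genes of these livers. S100a8 was 12.9 ± 16.8 CPM (SD, n = 12) in Te Intact and 4.45 ± 9.70 CPM (n = 12) in Te GDX mice, and the 2 sets of mice overlapped. It fell by 2.79 ± 0.67 on the log2 scale (edgeR adjusted p = 0.000397), and S100a9 fell by 2.33 ± 0.65 (edgeR adjusted p = 0.00213). Csf3r rose by 1.27 ± 0.26 (edgeR adjusted p = 5.12e-05). Retnlg differed by -1.43 ± 0.75 (edgeR adjusted p = 0.0910) and passed the DESeq2 Wald test at -1.54, and Ngp, Cxcr2, Mmp8 and Mmp9 by -0.72 to -0.43, each within 2 SE of 0. A two-sided permutation test of mean log2(CPM + 0.5) between the 12 and 12 mice gave p = 0.0324 for S100a8, p = 0.0631 for S100a9 and p = 0.00856 for Csf3r. Without XY Te GDX mouse 1, which had the highest level of all 8 members in its group, 6 members passed the edgeR test (Retnlg at -2.03, Mmp9 at -1.15 and Cxcr2 at -1.08 in addition).

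By sex chromosomes, S100a8 fell by 3.93 ± 1.09 (edgeR adjusted p = 0.00480) and S100a9 by 3.59 ± 1.07 (edgeR adjusted p = 0.00810) after castration of XX mice. These were the 2 members called by edgeR in XX mice (the DESeq2 Wald test also called Retnlg, at -2.83), where 18.7% of tested genes were called lower, and 1 of the 2 was called when only the compared groups entered the fit. S100a8 did not overlap between the XX groups, as did not 8.67% of tested genes in that direction. In XY mice S100a8 differed by -1.65 ± 0.76 (edgeR adjusted p = 0.0604) and S100a9 by -1.07 ± 0.74 (edgeR adjusted p = 0.213), and without XY Te GDX mouse 1 both passed, at -2.94 and -2.42. S100a8 also passed when XY Te Intact mouse 2, 4 or 5 was left out, at -1.89, -1.86 and -1.84. Csf3r rose by 2.23 ± 0.36 in XY mice (edgeR adjusted p = 2.32e-06), where 28% of tested genes were called higher. Every XY Te GDX mouse was above every XY Te Intact mouse for Csf3r, and 18.7% of tested genes were separated in that way. In XX mice Csf3r differed by 0.31 ± 0.38 (edgeR adjusted p = 0.537), but without XX Te Intact mouse 2, the highest of its group, it rose by 0.998 and passed the test. The 2 castration effects on Csf3r differed by 1.92 ± 0.52 (edgeR adjusted p = 0.0392), a test that 2.21% of all genes passed. Leaving out any of 11 mice ended that call, at 1.23 to 1.93, as did 3 other fits. No such difference passed for S100a8 (2.28 ± 1.37, edgeR adjusted p = 0.448) or S100a9 (2.52 ± 1.33, edgeR adjusted p = 0.373).

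Ovariectomy is the comparison that chose the members. S100a8 was 14.8-fold lower in Ov GDX than in Ov Intact mice in the fit, a log2 difference of -3.89 ± 0.66, and S100a9 had -2.79 ± 0.62 and Retnlg -1.79 ± 0.67. Mmp9, Ngp, Cxcr2 and Mmp8 had values between -0.76 and -0.41, and Csf3r had 0.77 ± 0.25. Of all tested genes, 69.4% had an adjusted p under 0.05 in this contrast. In Intact mice the fitted difference between Ov and Te was above 0 for all 8 members, from 0.11 (Ngp) to 1.33 ± 0.43 (Mmp9), with 1.22 ± 0.54 for S100a8. It shares the Ov Intact mice with the ovariectomy comparison.

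Mice of 1 group differed widely, and they did so for several members at once. In XX Ov Intact mouse 4 and XY Te GDX mouse 1 all 8 members had the highest level of the group, in XY Ov Intact mouse 5 and XX Te Intact mouse 2 there were 7. After each group mean was removed, log2(CPM + 0.5) of S100a8 correlated with 6 of the other members in the 24 Intact mice and with all 7 in the 24 GDX mice (permutation test, Benjamini-Hochberg adjusted over 14 relations). For S100a9 Pearson's r was 0.97 (Spearman's rho 0.98) in Intact and 0.95 (rho 0.88) in GDX mice, with a permutation p = 1e-05 that is the smallest the resampling can give. For Retnlg r was 0.90 (rho 0.88) and 0.91 (rho 0.78), and Pearson's r was again at that smallest permutation p. Without the 2 mice farthest from the median of S100a8, r stayed at 0.97 and 0.89 for S100a9 and at 0.89 and 0.82 for Retnlg.

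The granule and protease transcripts were tied less closely to S100a8 in Intact mice, with r of 0.57 for Ngp (permutation adjusted p = 0.00402; 0.42 without the 2 farthest mice), 0.68 for Mmp8 and 0.61 for Mmp9, than in GDX mice, with 0.95, 0.89 and 0.84. The difference between the cohorts was not tested. Cxcr2 had r = 0.46 (permutation adjusted p = 0.0235) and 0.91. Csf3r stood apart, with r = 0.36 in Intact mice (permutation adjusted p = 0.0857) and 0.56 in GDX mice (permutation adjusted p = 0.00657). The latter fell to 0.18 without XY Te GDX mice 1 and 6 and so rested on them. Over all 48 mice, Csf3r had r of 0.42 to 0.57 with the other members, against 0.63 to 0.96 among those 7. All members of a mouse share its library.

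**Figure D4:**
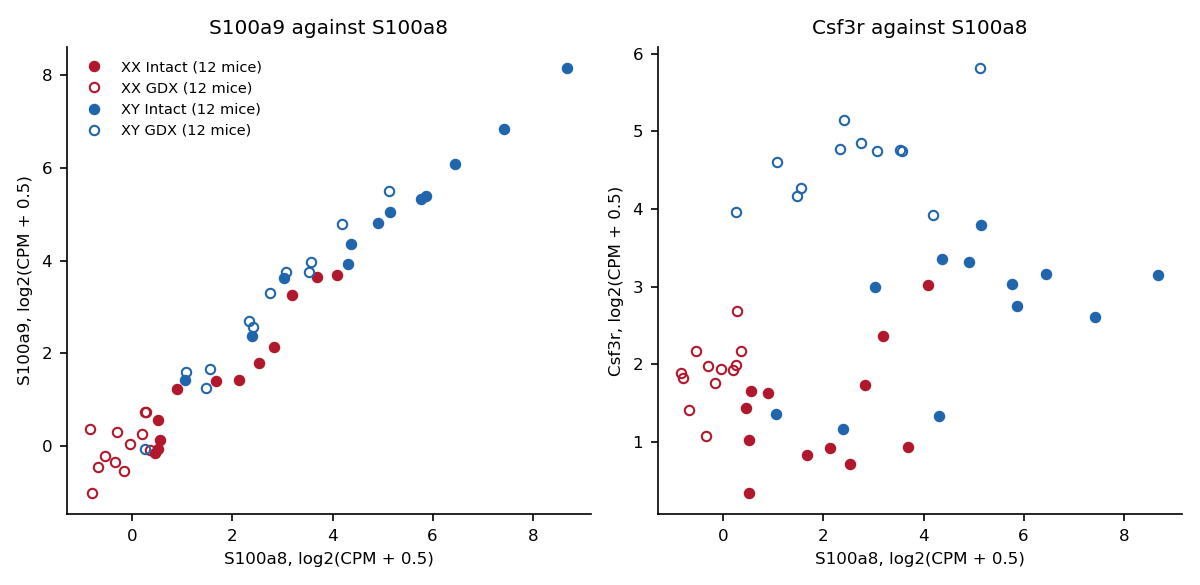
S100a9 and Csf3r against S100a8 in each of the 48 mice, all as log2(CPM + 0.5). S100a9 lies along 1 line with S100a8 in all 4 kinds of mice, while Csf3r of the XY GDX mice (open blue) lies above that of XY Intact mice with more S100a8.

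The genes outside the list whose deviations from the group mean were most like those of the members, by mean r over the 8 members in 48 mice, were Chi3l3 (0.78), Ppbp (0.75), Ltf (0.74), Slfn4 (0.72), Mpo (0.72), Camp (0.72), Pglyrp1 (0.71), F13a1 (0.68), Cd177 (0.67) and 1810033B17Rik (0.67). The median of all other tested genes was 0.08. Chi3l3, Ltf, Mpo, Camp, Pglyrp1 and Cd177 encode granule or surface proteins of neutrophils, Ppbp encodes a platelet chemokine that binds CXCR2, and F13a1 encodes a coagulation factor of monocytes and platelets.

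Other granule proteins were described from a list. Of 12, 11 were tested and 8 were higher in XY mice, against 14.8% of all tested genes, with none lower. The median log2 difference was 2.19, against -0.05 over all tested genes. Ltf, which encodes lactoferrin, differed by 4.33 ± 0.53. Mpo, Camp, Cd177 and Ltf had means of only 0.054, 0.104, 0.057 and 0.157 CPM in XX mice. Genes this sparse reach the filter through the XY mice, which favours a higher level there, so the count is a description. The genes not higher in XY mice were Hp (haptoglobin) and Lcn2 (lipocalin 2), acute-phase transcripts that hepatocytes also make, and Wfdc21. After castration, these 3 were the only ones of the 11 to pass, while 33.4% of all tested genes were called higher and 29.9% lower. Lcn2 rose by 2.49 ± 0.50 and Hp by 0.57 ± 0.13, and Wfdc21 fell by 1.72 on the log2 scale. Ctsg, which encodes cathepsin G, was too sparse to test, with 225 counts over the 24 XY mice and 6 counts over the 24 XX mice.

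Of 24 surface and signalling transcripts, 17 were tested and 14 were higher in XY mice, against 14.8% of all tested genes. The limit set by the filter holds for any of these that were sparse in XX mice. Itgb2 and Itgam, the chains of the integrin Mac-1 that macrophages share, differed by 2.88 ± 0.21 and 3.25 ± 0.24, and Il1b by 3.05 ± 0.27. After castration Itgb2 rose by 1.14 ± 0.28 and Itgam by 1.13 ± 0.35, with C5ar1 and Selplg, and Hdc fell (4 of 17 higher and 1 lower, against 33.4% and 29.9% of all tested genes). Ly6g, the surface antigen most specific for mouse neutrophils, was among the untested, with 45 counts in XY and 1 count in XX mice, and no library held more than 12. The 6 NADPH oxidase subunits, which macrophages also express, were all higher in XY mice, against 14.8% of all tested genes. Cyba differed by 1.52 ± 0.20 and Rac2 by 2.34 ± 0.19. After castration 5 of the 6 subunits rose and Cyba fell, against 33.4% of all tested genes higher and 29.9% lower.

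Of 11 ligands that call neutrophils or induce such signals, 6 were tested and 4 were higher in XY mice, against 14.8% of all tested genes. These were Ppbp by 2.86 ± 0.31, Saa3, Tnf, and Cxcl1 by 0.58 ± 0.23. In Intact mice 2 of the 6 passed (Ppbp and Tnf), against 6.42% of all tested genes called higher. Cxcl1 was the only one called after castration, when it fell by 1.21 on the log2 scale (edgeR adjusted p = 0.00173). Csf3, the ligand of the Csf3r product, was too sparse to be tested. Among 4 tested adhesion molecules of the endothelium, Pecam1 (1.31 ± 0.12) and Icam1 (0.59 ± 0.13) were higher in XY mice, against 14.8% of all tested genes. After castration Icam1, Vcam1 and Pecam1 rose and Selp fell, against 33.4% of all tested genes higher and 29.9% lower. Tlr4, a receptor of calprotectin, was higher in XY mice by 1.39 ± 0.12, as was Ager by 0.59 ± 0.20, against 14.8% of all tested genes. The metalloproteinase inhibitors did not pass that test. Timp2 rose by 0.43 ± 0.13 after castration, when 33.4% of all tested genes were called higher. Of 4 tested myeloid transcription factors, Spi1, which encodes PU.1, was higher in XY mice by 2.23 ± 0.17. Cebpe and Cebpa were lower (edgeR adjusted p = 0.000357 and 0.0430). Of all tested genes, 14.8% were called higher in XY mice and 36.7% in either direction. None of the 4 factors passed after castration, against 63.3% of all tested genes called in either direction.

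Markers of other cells differed between XX and XY mice as well. The summed level of 10 Kupffer and macrophage markers was 937.7 to 1338 CPM in XY Ov Intact and 355 to 901 CPM in XX Ov Intact mice, and 788 to 1545 CPM in XY Ov GDX and 277 to 525 CPM in XX Ov GDX mice. For Te mice it was 339.5 to 901 CPM in XY and 283 to 1079 CPM in XX when Intact, and 570.0 to 1982 CPM in XY and 191 to 457 CPM in XX after GDX. Of these markers 9 of 10 were higher in XY mice, against 14.8% of all tested genes, with a median log2 difference of 1.22. In Intact mice 7 of 10 were higher, against 6.42%, and in GDX mice 9 of 10, against 14.8%. After castration 2 rose (C1qa and Cd68) and 1 fell (Vsig4), against 33.4% of all tested genes higher and 29.9% lower, and of 5 monocyte markers Cx3cr1 and Csf1r rose and Plac8 fell. Of the 5 monocyte markers 4, both tested eosinophil markers and the 1 tested basophil marker were higher in XY mice, beside 14.8% of all tested genes. In XX groups the median summed level was at most 0.388 CPM for the eosinophil list and 0.0550 CPM for the mast cell and basophil list. Genes this sparse reach the filter through the XY mice, so these eosinophil and basophil counts are descriptions.

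Lymphocyte markers were higher in XY mice for 4 of 5 T cell and 3 of 4 B cell genes, and for none of 3 NK cell genes, and both tested platelet markers were higher. In Intact mice alone, 0 of 5 T cell, 1 of 4 B cell, 0 of 2 platelet and 0 of 4 erythroid genes passed the edgeR test, and in GDX mice 3, 4, 2 and 3 were higher. Of all tested genes, 14.8% were called higher in XY mice in the whole comparison, 6.42% in Intact and 14.8% in GDX mice. Of 4 erythroid markers 3 were higher in the whole comparison. The sum of the 4 was 53.9 to 112 CPM in XY Ov Intact against 25.2 to 49.6 CPM in XX Ov Intact mice. It was 79.9 to 121 CPM in XY Te Intact against 83.2 to 133 CPM in XX Te Intact mice. None of 6 hepatocyte, 3 sinusoidal endothelial or 3 stellate markers passed the chromosomal test, and of 4 biliary markers Epcam was lower. S100a8 and S100a9 are also made by keratinocytes: of 5 keratinocyte markers 1 was tested, Krt10, at -0.09 ± 0.16 for XY minus XX (edgeR adjusted p = 0.715), and the marker sum was at most 8.36 CPM. After castration 33.4% of all tested genes were called higher and 29.9% lower. Among these markers Cd3e, Ncr1, Itga2b, Krt7, Krt19, Stab2 and Reln rose, and Klrk1, Alas2, Hba-a2, Krt10, Sox9, Ttr, Serpina1c and Clec4g fell. The part of any of these cells, or of retained blood, in the results was not tested.

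A block of X-linked genes also limited what an XX against XY comparison can say. The genes were chosen outside the rule, after their values were seen, as those from Ofd1 to Mid1 in the order of the NCBIM37 annotation. Ofd1, Trappc2, Rab9 and Tceanc differed by -0.11 to -0.03 on the log2 scale between XY and XX mice. The next 9 tested genes were all higher in XY mice: Prps2, Msl3, Arhgap6, Gm15261, Hccs and Mid1 by 0.68 to 0.91, and Tmsb4x and Tlr8 by 2.47 and 2.97. Tlr7 had a mean of 19.3 CPM in XY and 4.30 CPM in XX mice. Tlr7 and Tlr8 encode endosomal RNA sensors of myeloid cells, and Tmsb4x encodes a thymosin abundant in leukocytes. A copy of this X segment on the Y- chromosome is known in some FCG colonies, and the sources used here do not state whether these mice carry it. The effect of XX against XY, of such a segment and of the number of leukocytes cannot be told apart in this design.

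**Figure D5:**
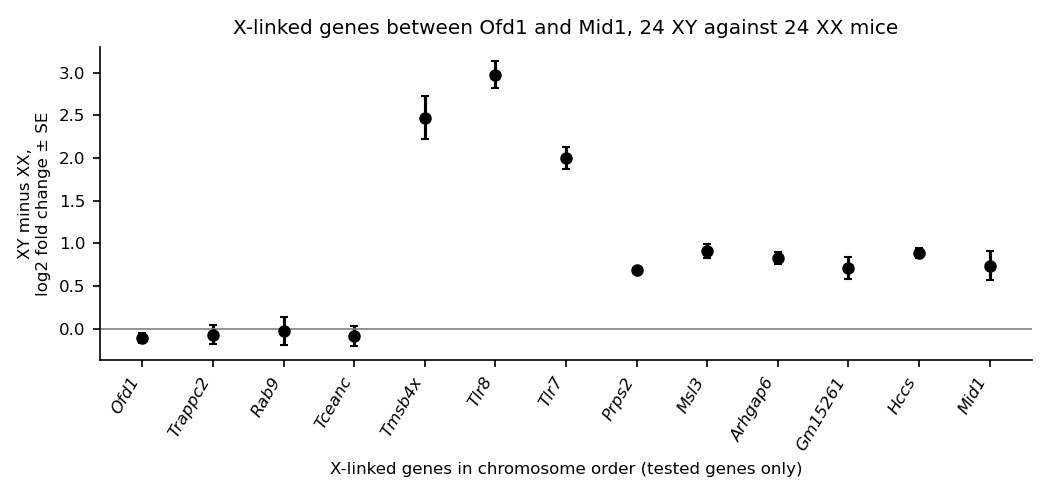
Log2 fold change of XY minus XX mice with its SE for tested X-linked genes from Ofd1 to Mid1, in chromosome order, over 24 and 24 mice. The first 4 genes lie at -0.11 to -0.03 and the following 9 at 0.68 or above, with Tlr8 highest at 2.97.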

How the data were processed

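Livers of 48 FCG mice, 1 library each, were analysed by RNA-seq. Per the labels, mRNA libraries were made from total RNA, and the submitters' processing notes name STAR 2.7.10a, GRCm39 and DESeq2 1.36.0. The authors counted reads per Ensembl gene and deposited raw counts, not normalized, with 4 summary lines that were left out of totals and tests (per library, reads outside genes 3.47 to 11.3%, multimapping 8.59 to 18.9%, unmapped 6.99 to 16.5% and ambiguous 2.53 to 3.55%). The annotation release, strand setting and trimming are not given in the sources used here, so overlapping genes can have exchanged reads. Every sample column was matched to 1 mouse.

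Groups came from the genotype and treatment labels. The members and all gene lists were chosen with earlier results of these data known. CPM are counts divided by the total on genes. Counts were fitted in edgeR 4.0.16 (TMM, filterByExpr, robust quasi-likelihood, 8 group means, all 48 mice), with Benjamini-Hochberg adjustment over 15414 genes and a threshold of 0.05. SE is the log2 fold change divided by the square root of F. On simulated data the castration test, run on 15062 genes, recovered 95 of 100 genes changed 2-fold and 100 of 100 changed 4-fold, with 8 false calls of 203. The changed genes were drawn without the sparsest genes, and no other group difference was simulated. The rates do not give the chance of a call for single members, whose castration SE ran from 0.26 (Csf3r) to 0.85 (Ngp). Single members and correlations were tested with 100000 resamples on log2(CPM + 0.5), after removal of group means for correlations. Nothing states that mice of a group came from separate litters, so p-values measure the spread between these mice. Counts are reads without molecular identifiers, and floors cover counting error only.

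Named genes were the 8 members, in each list the 4 tested genes with the highest mean CPM and the 2 that castration changed most (past the threshold, mean log2 CPM not under 0), the 10 genes most like the members in covariation, and the sex-linked checks. Genes named beside a count of 5 or fewer, and the untested markers, were chosen after their values were seen. Symbols matched 139 of 142 listed genes (not Mrgpra2b, Hbb-bs or Hbb-bt). Alternatives were DESeq2 1.42.0 (size factors, Wald test), library totals, 2 other filters, a non-robust fit, 1 surrogate variable (sva 3.50.0), only the compared groups, other pseudocounts and each mouse left out.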

Additional observations from a re-analysis of the deposited data

Results flagged for a closer look

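Among the 64 sets of 6 mice (8 members in 8 groups), 5 held a mouse whose distance from the nearest other mouse exceeded Dixon's critical share of the range for 6 values on the log2(CPM + 0.5) scale. Chance flags about 1 set in 20. XX Ov Intact mouse 4 stood above the rest of its group for Mmp8, at 0.707 CPM against at most 0.111, and for Mmp9, at 1.25 CPM against at most 0.519. Retnlg was 0.374 CPM in XX Ov GDX mouse 3 (6 counts, the other 5 mice at most 0.0669 CPM). Ngp was 0.487 CPM in XX Te GDX mouse 4 (7 counts, the others at most 0.112 CPM). Csf3r was lowest in XY Ov GDX mouse 1, at 14.7 CPM, while the other 5 mice of that group lay between 23.9 and 26.8 CPM. The same mouse had the highest S100a8, S100a9, Retnlg, Ngp, Mmp8 and Mmp9 of its group.

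Csf3r was also called in tests of a difference between groups. Its castration effect was larger in XY than in XX mice by 1.92 on the log2 scale, and its difference between XY and XX mice was larger after GDX than in Intact mice by 1.39. Both passed the edgeR test of the difference itself, and both share the Te mice. The first call was lost without any of 11 mice, and the second without any of 4. With 1 surrogate variable both were lost. The first was also lost without a filter beyond 1 count and with only the compared groups.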

How the results depend on the processing

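No paired analysis was possible because each mouse has its own identifier and the replicate numbers only name mice. The chromosomal effect called 8 members under every other fit but the filter of at least 10 counts in every mouse, which tested only Csf3r. In GDX mice it called 8 under the same fits, and 7 with only the compared groups. Under that filter 1 member was called for castration, 0 for castration in XX, 1 for the chromosomal effect, 1 in Intact mice and 1 in GDX mice, since 7 were not tested. With only the compared groups in the fit, castration in XX gave 1 call in place of 2, and the castration by chromosome interaction gave 0 in place of 1. That interaction also gave 0 without a filter beyond 1 count and with 1 surrogate variable. The chromosome by GDX interaction gave 0 in place of 1 with 1 surrogate variable. Fits of only the compared groups could not differ from the main fit for the chromosomal effect and the chromosome by GDX interaction, which use all groups. No member changed direction where it was called.

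Leaving out each of the 48 mice in turn gave 3 to 6 members for castration, 2 to 3 in XX mice and 1 to 3 in XY mice. It gave 8 to 8 for the chromosomal effect, 6 to 8 in Intact and 8 to 8 in GDX mice, and 0 to 1 for each interaction. Mmp9 in Intact mice was lost without XY Ov Intact mouse 5 (1.27) or XY Te Intact mouse 5 (1.16). Without XX Te Intact mouse 4, which held Y-linked reads, castration called 3 members, castration in XX 2, the chromosomal effect 8, and that in Intact mice 7 and in GDX mice 8. Without XX Te Intact mouse 5 these counts were the same. The fitted ovariectomy median of the members ranged from -0.96 to -0.48 and the gonadal median from 0.51 to 1.07. Dixon's ratio marked 20 sets on the CPM scale and 5 on the log scale.

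Over all tested genes, the castration by chromosome interaction called 340, against 621 with the DESeq2 Wald test, 191 without the filter, 3 with a surrogate variable and 6 with only the compared groups. The chromosome by GDX interaction called 327, against 545 with library totals, 661 with DESeq2 and 109 with a surrogate variable. Intact mice gave 1648 chromosomal calls, against 940 with at least 10 counts and 819 with only the compared groups, and GDX mice gave 5288 against 3491 with at least 10 counts. The interactions ranged from 4 to 795 and from 115 to 748 genes over the omitted mice that moved them. Low counts limit Cxcr2, Retnlg, Mmp8 and Ngp in XX mice.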
